A study of Mus musculus with 8 samples.

Results

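The endothelin system of the mouse retina was followed through 6 genes: the ligand genes Edn1, Edn2 and Edn3, the receptor genes Ednra and Ednrb, and Ece1, which encodes the main converting enzyme. The members were taken by gene symbol, and all 6 were found among the 26824 genes counted. RNA sequencing had been done on retinas of mice labelled wild-type (WT, 3 libraries) and mice labelled as knockouts of Kv8.2 (KO, 5 libraries). Kv8.2 is a modulatory potassium channel subunit of rod and cone photoreceptors, encoded by Kcnv2. Each library came from 2 pooled retinas of an individual mouse aged 1 month that had received no treatment. The labels give no strain, no description of the deleted part of the gene and no list of the cells affected, and whole retina was sampled, so that fewer cells of a type and less RNA per cell cannot be told apart. The authors compared 3 WT with 3 KO samples after leaving out 2 KO samples. Those samples are not named, and all 8 libraries were used here.

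Endothelins are short peptides cut from larger precursors. A furin-like protease releases an inactive big endothelin, and endothelin converting enzyme 1 cuts that to the mature peptide. The peptides act on a pair of G protein-coupled receptors: receptor A prefers endothelin-1 and endothelin-2, while receptor B binds all of the ligands about equally. In the injured mouse retina, Edn2 is known as a transcript made by stressed photoreceptors, and receptor B is found on Muller glia and astrocytes, so that the pair is regarded as a signal from photoreceptors to glia. Vascular endothelium is the classical source of endothelin-1, and pericytes and smooth muscle are the classical sites of receptor A.

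The 3 ligands are close relatives, and the stretches of coding sequence for their mature peptides of 21 residues are shown to let the ligands be told apart. They were read from GENCODE M21 transcripts (GRCm38) by the spacing of the cysteine codons. Capitals mark the bases at which a ligand differs from both of the others.
Edn1: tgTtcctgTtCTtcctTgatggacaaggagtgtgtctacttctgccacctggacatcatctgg
Edn2: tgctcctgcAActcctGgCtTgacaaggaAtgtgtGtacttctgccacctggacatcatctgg
Edn3: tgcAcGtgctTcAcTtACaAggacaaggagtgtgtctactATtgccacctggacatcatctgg
Over these 63 bases, Edn1 and Edn2 differed at 10, Edn1 and Edn3 at 13, and Edn2 and Edn3 at 15. Of the 21 codons, 18 encoded the same residue in Edn1 and Edn2, and 15 did so in Edn1 and Edn3 and in Edn2 and Edn3. The end of the peptide that is cut by the converting enzyme is identical in all of them. Despite this likeness, few words of 31 bases are shared with other genes over the whole transcripts: none in Edn2 and Edn3, 0.569% in Edn1, 0.248% in Ece1, 0.377% in Ednrb and 1.29% in Ednra.

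In the GRCm38 annotation Edn2 (ENSMUSG00000028635) lies at chr4:120161206-120167360 on the + strand with 1 transcript, and Ece1 (ENSMUSG00000057530) on the same chromosome at chr4:137862237-137965229 with 4 transcripts. Edn1 (ENSMUSG00000021367) lies at chr13:42301476-42307990, Edn3 (ENSMUSG00000027524) at chr2:174760619-174784042, Ednra (ENSMUSG00000031616) at chr8:77663031-77724464 and Ednrb (ENSMUSG00000022122) at chr14:103814625-103844402. Exons of Edn1 overlap those of the antisense gene Gm47118, and exons of Ednra overlap those of 4933431K23Rik on the other strand. Counting by strand is not given in the sources used here, so that reads from the overlapping stretches of these 2 members and their partners cannot be told apart.

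Library depth was 17759146 to 25188870 counts, and 3 counts, taken as the floor of detection, equal 0.130 to 0.164 CPM (counts per 1000000 after TMM scaling, the trimmed mean method of edgeR). Intervals on counts cover counting error only. The targeted gene was checked first. Kcnv2 was at 519 to 551 CPM in WT and at 398 to 585 CPM in the libraries labelled KO, with a log2 fold change of -0.24 (SE 0.14) and an adjusted p-value of 0.275 in edgeR's quasi-likelihood test. KO 2, at 585 CPM, was above every WT library. The log2 fold change of Kcnv2 was -0.38 in KO 4, KO 5 and KO 6 against WT (edgeR adjusted p-value 0.000116) and -0.04 in KO 2 and KO 3 against WT (edgeR adjusted p-value 0.903). Its transcript was present in every library, so that its gene-level count does not check the labels, and KO below means the libraries labelled KO. The libraries also fell apart in ways that the labels do not name. KO 4, KO 5 and KO 6 had scores of 45.7 to 58.1 on the first principal component. KO 2 was at -11.9, above every WT library, and KO 3 at -38.7, inside the WT range of -40.2 to -26.3. KO 4, KO 5 and KO 6 had 3.03% to 3.70% mitochondrial counts, against 5.23% to 7.92% elsewhere. KO 2 and KO 3 were not alike, with a chi-square over genes of 110 per degree of freedom. It was 44 to 62 for KO 2, and 97 to 116 for KO 3, against KO 4 to KO 6. KO 3 held 4.67% of its counts in 13 lens genes, where no other library held more than 0.136%. Xist had 9 counts in WT 3 and at least 30144 elsewhere, and Ddx3y had 2132 counts there against at most 3. By these counts WT 3 was from a male and every other library from a female. The part of sex in the differences between KO and WT was not tested. Because the libraries differed in these ways, each member is given library by library. KO 4 to KO 6 and KO 2 with KO 3 are each also compared with WT. This split was chosen from these same counts. The intervals and p-values of its fits, those of Kcnv2 included, therefore describe the libraries and are not independent tests.

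**Figure D1:**
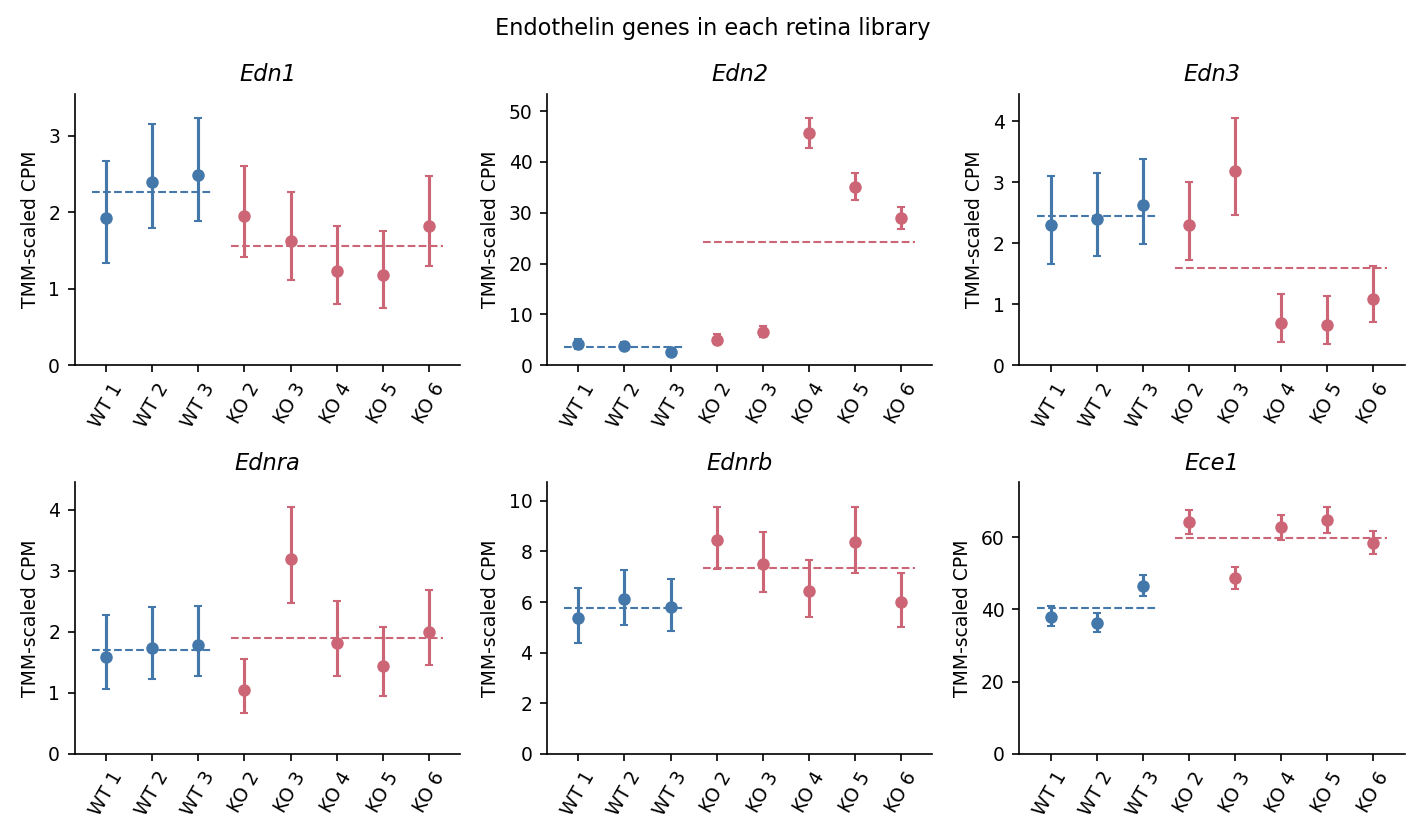
Level of each endothelin gene in each library, in TMM-scaled CPM on linear axes from 0. Points are libraries (blue WT, red KO), bars are exact 95% Poisson intervals of the count, and dashed lines are group means. In KO 4, KO 5 and KO 6 Edn2 stands at 28.9 to 45.6 CPM, and the other libraries lie at 2.66 to 6.51 CPM.

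Edn2 had the largest difference of the 6 members. It was at 4.17, 3.71 and 2.66 CPM in WT 1, WT 2 and WT 3, and at 5.04, 6.51, 45.6, 35.1 and 28.9 CPM in KO 2 to KO 6. These levels rest on 60 to 79 counts per WT library and on 116 to 925 counts per KO library. Every KO library was above every WT library, but KO 2 and KO 3 stood far nearer to WT than to KO 4, KO 5 and KO 6. WT averaged 3.52 ± 0.771 CPM (SD, n = 3), whereas KO averaged 24.2 ± 17.9 CPM (SD, n = 5). This was a 6.89-fold rise with a 95% interval of 2.31 to 20.6-fold (log2 fold change 2.79, SE 0.71), at an edgeR adjusted p-value of 0.0433. It was the 25th largest rise among the 956 genes called higher, and 4.74% of the 20167 tested genes were called higher.

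The size of the Edn2 difference depended on which KO libraries entered. KO 4, KO 5 and KO 6 against WT gave a 10.5-fold difference (95% interval 7.96 to 13.9, edgeR adjusted p-value 1.72e-07), in a comparison that called 42.8% of all genes. KO 2 and KO 3 against the same WT libraries gave 1.65-fold (95% interval 1.11 to 2.45, edgeR adjusted p-value 0.189), where 0.891% of genes were called. The 2 values share the WT libraries and rest on a split chosen from these same counts. They are set side by side only, and their p-values are not independent tests. Among the KO libraries, the SD of the log2 CPM of Edn2 was 1.46, and 1.40% of tested genes had an SD as large. The call over all 8 libraries also ended when any 1 of 6 libraries was left out: the edgeR adjusted p-value was 0.147 without WT 1, 0.166 without WT 2, 0.146 without WT 3, 0.0858 without KO 4, 0.0893 without KO 5 and 0.0781 without KO 6. The log2 fold change in these fits was 2.43 to 2.92. At a log2 fold change of 2.79 the call was also lost with robust estimation (edgeR adjusted p-value 0.110) and with scaling by library size alone (edgeR adjusted p-value 0.0504).

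The bases before the start of Edn2 are shown because it is the member that moved most. The 250 bases upstream of its RefSeq start (chr4:120160956-120161205, GRCm38.p6, + strand) have a GC content of 55.6%.
Edn2 upstream: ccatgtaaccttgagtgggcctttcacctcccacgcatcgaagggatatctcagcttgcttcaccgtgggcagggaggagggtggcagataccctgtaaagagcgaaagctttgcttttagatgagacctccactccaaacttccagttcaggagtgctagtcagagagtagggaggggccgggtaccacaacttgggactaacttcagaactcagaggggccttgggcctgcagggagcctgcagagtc
Searches for 7 sets of letters were made on both strands, and none of them occurs in this window, so no base is in capitals. They were the AP-1 site TGANTCA, held by 6.75% of 32851 RefSeq promoter windows of the same length, the STAT site TTCNNNGAA (7.02%) and the C/EBP site TTGCNNAA (9.56%). The others were the hypoxia response core ACGTG (16.6%), the cAMP response core TGACG (17.8%), the GATA core AGATAA (9.99%) and the photoreceptor homeobox core TAATCC (6.25%). Among all 9 windows of the 6 members, Ednrb had 1 match each to TGACG and TAATCC, and 1 of the 4 windows of Ece1 had 2 overlapping matches to ACGTG. The absence of letters from a window says nothing of more distant elements.

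Edn1, the endothelial ligand, went the other way without passing the threshold. It was at 1.92, 2.40 and 2.49 CPM in WT 1 to WT 3, and at 1.95, 1.62, 1.23, 1.18 and 1.82 CPM in KO 2 to KO 6. Of the 5 KO libraries, 4 were below every WT library, and KO 2 was just above WT 1. The KO to WT ratio was 0.689 with a 95% interval of 0.477 to 0.996, and the edgeR adjusted p-value was 0.179. The ratio was 0.628 in KO 4 to KO 6 against WT (edgeR adjusted p-value 0.0639) and 0.787 in KO 2 and KO 3 against WT (edgeR adjusted p-value 0.543). With 23 to 56 counts per library, the counting interval of a single library was wide, from 0.745 to 1.76 CPM in KO 5.

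Edn3, the ligand that with receptor B guides neural crest cells in development, fell into separate levels inside the KO group. WT 1 to WT 3 were at 2.30, 2.40 and 2.62 CPM. Of the KO libraries, KO 2 was at 2.30 and KO 3 at 3.19 CPM, while KO 4 to KO 6 were at 0.689, 0.664 and 1.09 CPM. KO 2 and KO 3 were thus not separated from WT, and KO 4 to KO 6 were all below it. Over all libraries the KO to WT ratio was 0.653 (95% interval 0.317 to 1.35), with an edgeR adjusted p-value of 0.426. KO 4, KO 5 and KO 6 against WT gave 0.340 (95% interval 0.219 to 0.528, edgeR adjusted p-value 0.000984), and KO 2 and KO 3 against WT gave 1.12 (0.739 to 1.70, edgeR adjusted p-value 0.771). That split was chosen from these same counts, so its p-values describe the libraries and are not independent tests. The libraries with low Edn3 were those with high Edn2. Edn3 was highest in KO 3, the library with lens transcripts, whose part in that level was not tested. Without KO 3 the log2 fold change of Edn3 moved from -0.61 to -1.02 (edgeR adjusted p-value 0.106). In limma voom with library quality weights, which called 40.9% of all genes, Edn1 (log2 fold change -0.67, adjusted p-value 0.0267) and Edn3 (-1.46, adjusted p-value 0.00166) were both called lower.

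Ece1, the converting enzyme, was the second member that passed the threshold. It was at 38.0, 36.3 and 46.6 CPM in WT 1 to WT 3, and at 64.2, 48.7, 62.8, 64.8 and 58.5 CPM in KO 2 to KO 6. Every KO library was above every WT library, with the smallest gap between KO 3 and WT 3. WT averaged 40.3 ± 5.52 CPM (SD, n = 3), whereas KO averaged 59.8 ± 6.65 CPM (SD, n = 5). The rise was 1.48-fold (95% interval 1.24 to 1.78), with a log2 fold change of 0.57 (SE 0.12) and an edgeR adjusted p-value of 0.0254. Unlike Edn2, Ece1 did not separate KO 2 and KO 3 from the other KO libraries: the ratio to WT was 1.55 (95% interval 1.35 to 1.78, edgeR adjusted p-value 0.000154) for KO 4 to KO 6 and 1.40 (1.11 to 1.77, edgeR adjusted p-value 0.156) for KO 2 and KO 3. The difference between these 2 ratios was not tested. The call ended without WT 1 (edgeR adjusted p-value 0.123), WT 2 (0.131), KO 4 (0.0639) or KO 5 (0.0635), at log2 fold changes of 0.51 to 0.55.

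The GC content of the longest transcript was 57.0% for Edn2 and 54.8% for Ece1, and 43.9% to 50.8% for the other members. With an offset for GC content in each library, the log2 fold change of Edn2 was 2.49 and that of Ece1 was 0.38, each with an edgeR adjusted p-value of 0.0494. That of Ednrb moved to 0.49 (edgeR adjusted p-value 0.0645).

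Ednrb, the receptor of Muller glia and astrocytes, was at 5.37, 6.11 and 5.82 CPM in WT 1 to WT 3, and at 8.46, 7.51, 6.45, 8.38 and 6.01 CPM in KO 2 to KO 6. Of the 5 KO libraries, 4 were above every WT library, and KO 6 lay inside the WT range. WT averaged 5.77 ± 0.373 CPM (SD, n = 3), whereas KO averaged 7.36 ± 1.11 CPM (SD, n = 5). The KO to WT ratio was 1.28 with a 95% interval of 0.999 to 1.63 and an edgeR adjusted p-value of 0.184. It was 1.21 in KO 4 to KO 6 (edgeR adjusted p-value 0.189) and 1.38 in KO 2 and KO 3 (edgeR adjusted p-value 0.200). The interval over all libraries leaves room for a change of more than 1.5-fold as well as for none. The libraries with the highest Ednrb were KO 2 and KO 5, so that its order did not follow that of Edn2.

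Ednra, the receptor of vascular smooth muscle and pericytes, was at 1.59, 1.74 and 1.78 CPM in WT 1 to WT 3, and at 1.04, 3.19, 1.82, 1.43 and 2.0 CPM in KO 2 to KO 6. The KO libraries lay on both sides of WT. The ratio was 1.11 (95% interval 0.669 to 1.85), with an edgeR adjusted p-value of 0.804. It was 1.04 in KO 4 to KO 6 (edgeR adjusted p-value 0.888) and 1.24 in KO 2 and KO 3 (edgeR adjusted p-value 0.749). KO 3, the library with lens transcripts, was the highest, and without it the log2 fold change turned from 0.15 to -0.11 (edgeR adjusted p-value 0.824). The part of lens tissue in the level of KO 3 was not tested.

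Over the 6 members, all of which passed the filter on low counts, edgeR called 2 higher and 0 lower, against 4.74% and 2.84% of all tested genes and 7.58% in either direction. Every KO library was above every WT library for the same 2 members, Edn2 and Ece1, as for 10.8% of tested genes. At an unadjusted p-value under 0.05, Edn1 was lower as well (0.0481), and DESeq2 called none of the members lower. The median log2 fold change of the members was 0.25, against 0.00 over all genes.

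**Figure D2:**
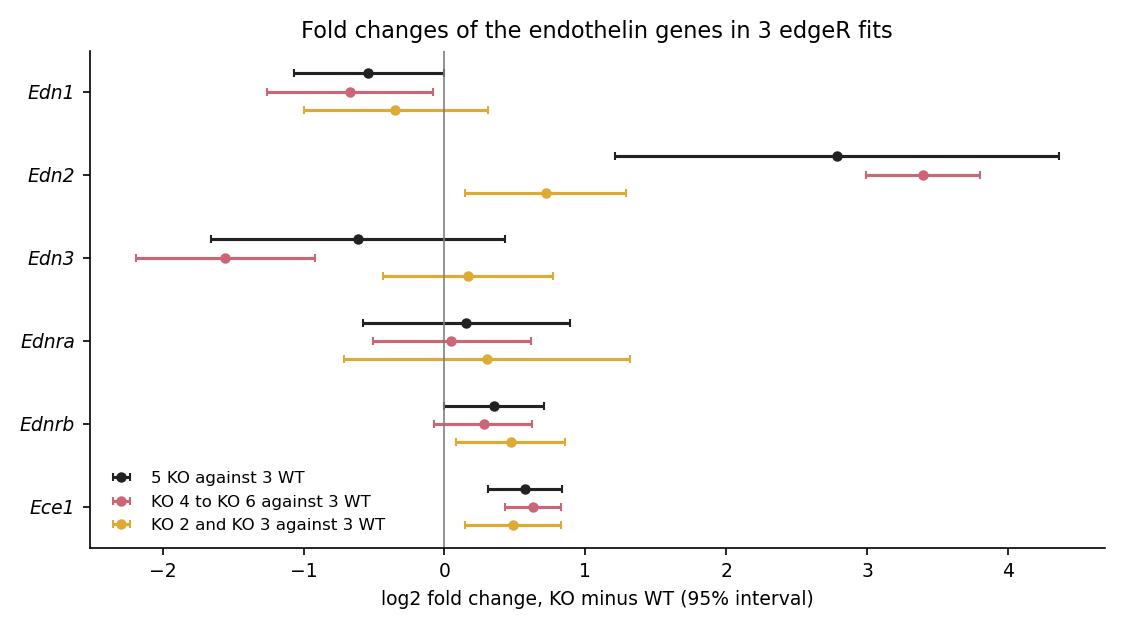
Log2 fold change of each endothelin gene (x axis, KO minus WT) with its 95% interval in 3 edgeR fits that share the 3 WT libraries. Black, 5 KO libraries; red, KO 4 to KO 6; yellow, KO 2 and KO 3. The fits lie apart for Edn2 (3.40 in KO 4 to KO 6, 0.72 in KO 2 and KO 3) and Edn3 (-1.56 and 0.17), and near each other for Ece1 (0.63 and 0.49).

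Levels of different members can be compared only per length, and CPM were therefore divided by the kilobases of annotated exon. In WT, Ece1 was highest at 7.60 ± 1.04 CPM per kb (SD, n = 3), followed by Edn2 (2.40 ± 0.527), Ednrb (1.35 ± 0.0873), Edn1 (1.06 ± 0.143), Edn3 (0.593 ± 0.0396) and Ednra (0.311 ± 0.0180). In WT no 2 neighbours in this order overlapped between libraries. In KO, Edn2 led at 16.6 ± 12.2 CPM per kb (SD, n = 5) but ranged from 3.44 to 31.2, around the 9.20 to 12.2 of Ece1. Ednrb followed at 1.41 to 1.98, clear of Edn1 at 0.550 to 0.913. Edn3 (0.162 to 0.775) overlapped both Edn1 and Ednra (0.190 to 0.582). The mean level of Ece1 stood at the 73.3 percentile of tested genes of known length and that of Ednra at the 10.2 percentile, with Ednrb at 32.2, so that the receptors were among the weaker transcripts of whole retina.

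The mixture of ligands was described by the share of each in their summed CPM per kb. Edn2 was already the major ligand transcript in WT, with 66.2%, 59.9% and 50.3% in WT 1 to WT 3. It took 70.0% in KO 2, 74.4% in KO 3, and 97.7%, 97.1% and 94.6% in KO 4 to KO 6. Every KO library had a larger share of Edn2 than every WT library. Edn1 held 20.8% to 32.1% of ligand transcript in WT. Its share was 18.6% in KO 2, 12.6% in KO 3 and 1.80% to 4.08% among the other KO libraries. The shares of the ligands are bound to each other, so a larger share of Edn2 alone lowers that of Edn1. The level of Edn1 itself was not called lower (edgeR adjusted p-value 0.179). The summed ligand level was 3.62 to 4.31 CPM per kb in WT, 4.92 in KO 2, 5.99 in KO 3 and 20.9 to 31.9 among the remaining KO libraries. Among the receptors, Ednrb held 80.8% to 81.9% in WT and 75.2% to 91.3% in KO, with no separation of the groups.

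**Figure D3:**
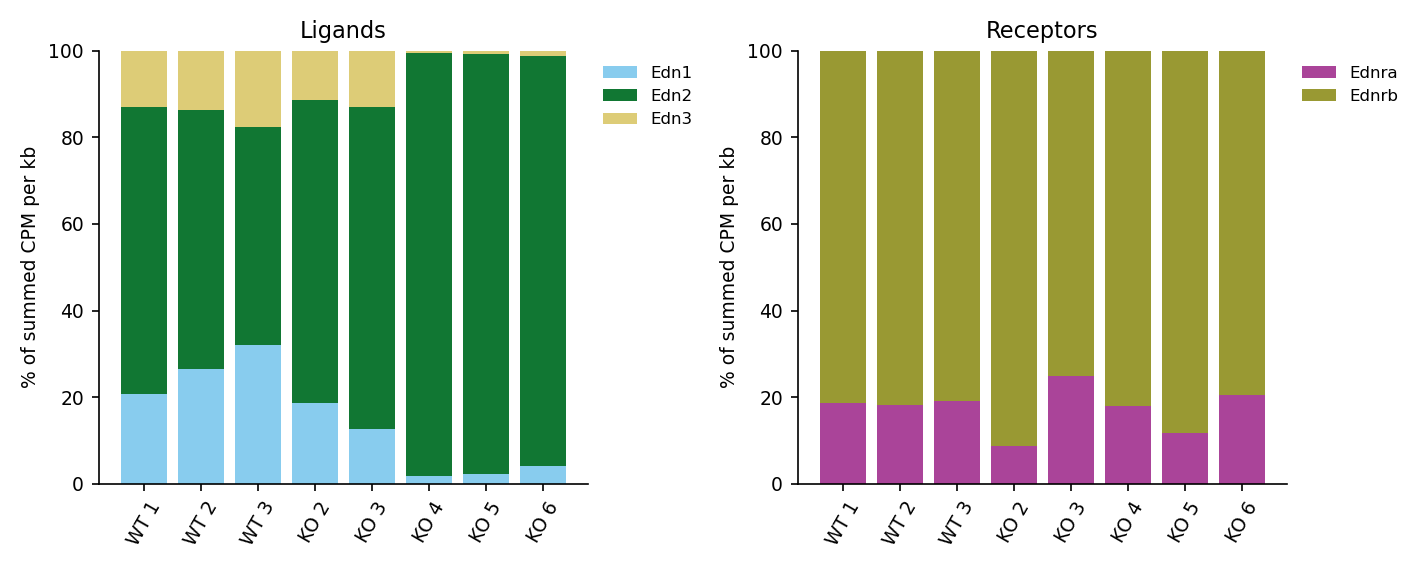
Share of each ligand gene (left) and receptor gene (right) in the summed CPM per kb of its family, in percent, with 1 bar per library. Edn2 takes 50.3% to 66.2% of ligand transcript in WT and 94.6% to 97.7% in KO 4 to KO 6, while Ednrb takes most of the receptor transcript in all libraries.

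Around the members, 4 lists of genes were counted, and each count has to be read against the share of all tested genes called in the same fit. Of all genes, 4.74% (956) were called higher and 2.84% (573) lower over the 8 libraries. Scaling by library size alone turned this balance over, to 2.81% (566) higher and 3.90% (787) lower, while the direction of each of the 6 members stayed as under TMM. In the split fits 22.3% were called higher in KO 4 to KO 6 against WT and 0.624% in KO 2 and KO 3 against WT. With 1 library left out, the share called higher was 0.424% without WT 1, 0.417% without WT 2, 0.658% without WT 3, 7.66% without KO 2, 12.2% without KO 3, 1.28% without KO 4, 1.31% without KO 5 and 1.73% without KO 6. DESeq2 called 9.72% higher and limma voom 20.3%.

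Genes that process or clear the peptides were given from a list of 10, of which 6 passed the filter on low counts. None was called in either direction by edgeR, 1 (Furin) had an unadjusted p-value under 0.05, DESeq2 called 1 higher and limma voom 3, and the median log2 fold change was 0.18. Furin, which releases big endothelin, was at 45.7 to 54.4 CPM in WT and 54.3 to 76.4 CPM in KO (log2 fold change 0.34, SE 0.11, edgeR adjusted p-value 0.0808). Ece2, a converting enzyme of neurons, was at 27.9 to 30.3 and 28.2 to 33.9 CPM (log2 fold change 0.09, SE 0.10). Mme, which encodes the endothelin-degrading peptidase neprilysin, was at 6.35 to 6.69 CPM in WT. It was at 6.03 CPM in KO 2, 29.2 CPM in KO 3 and 0.866 to 2.61 CPM among the other KO libraries. Its low levels were in the libraries that were also low in Edn3, and its high level was in KO 3, where Edn3 and Ednra were highest.

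Of 21 genes through which the receptors are coupled to the cell, 3 were called higher and 0 lower by edgeR, against 4.74% and 2.84% of all genes, and the median log2 fold change was 0.11. Gna12, a G protein alpha subunit, rose from 31.1 to 34.1 CPM in WT to 46.2 to 52.7 CPM in KO (log2 fold change 0.59, SE 0.08, edgeR adjusted p-value 0.00451). Gnai2, an inhibitory G protein subunit, rose by 0.52 on the log2 scale (SE 0.10, edgeR adjusted p-value 0.0170). Itpr1, a receptor for the calcium-releasing messenger inositol trisphosphate, rose by 0.43 (SE 0.07, edgeR adjusted p-value 0.0102). The classical couplers Gnaq (0.16, edgeR adjusted p-value 0.371) and Gna11 (0.43, edgeR adjusted p-value 0.0782) did not pass. Rgs2, which shortens G protein signals, was at 41.4 to 43.7 CPM in WT and 32.6 to 37.6 CPM in KO, with a ratio of 0.840 (95% interval 0.743 to 0.950), an unadjusted p-value of 0.00976 and an edgeR adjusted p-value of 0.0761. The number called higher followed the number called among all genes: it was 1 when WT 1, WT 2 or WT 3 was left out, 5 without KO 2 or without KO 3, 1 in KO 2 and KO 3 against WT, and 8 of 21 in KO 4 to KO 6 against WT, where 22.3% of all genes were called higher.

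A list of 12 genes held hypoxia-related or AP-1 factors known from the control of endothelin genes or from the same responses. Of these, 4 rose and 1 fell, against 4.74% and 2.84% of all genes, with a median log2 fold change of 0.32. Fos rose from 11.9 to 15.2 CPM in WT to 32.8 to 45.7 CPM in KO (log2 fold change 1.46, SE 0.14, edgeR adjusted p-value 0.000746). Junb (1.27, edgeR adjusted p-value 0.00513) and Jun (0.82, edgeR adjusted p-value 0.0138), which with Fos form AP-1, rose as well. Epas1, the oxygen-regulated factor also called HIF-2 alpha, was at 146 to 157 CPM in WT and 180 to 261 CPM in KO (0.63, edgeR adjusted p-value 0.0243). Vegfa, a classical target of hypoxia factors, fell by 0.38 on the log2 scale (SE 0.09, edgeR adjusted p-value 0.0317), and Hif1a was at -0.08 (edgeR adjusted p-value 0.793). Of the 5 called genes, Fos and Junb were also called in KO 2 and KO 3 against WT. In that comparison 0.891% of all genes were called. The number that rose was 2 without WT 1, without WT 2 or without WT 3, where 0.417% to 0.658% of all genes were called higher.

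The transcripts of the response in which Edn2 is usually listed, from leukaemia inhibitory factor (Lif) to Muller glia, formed the last list. Of 16 genes, 11 were called higher and 0 lower by edgeR, against 4.74% and 2.84% of all genes, with a median log2 fold change of 1.05. This list was drawn up with results of these libraries known, so that its count is not independent evidence of its direction. Lif rose from 0.178 to 0.493 CPM in WT to 0.856 to 2.56 CPM in KO (log2 fold change 2.56, SE 0.46, edgeR adjusted p-value 0.0147). In WT, Lif and Bcl3 (0.274 to 0.470 CPM) lay near the floor of 0.130 to 0.164 CPM, so the sizes of their rises are uncertain. The receptor chains Lifr (0.45), Il6st (0.70), Osmr (1.34) and Cntfr (0.87) and the transcription factor Stat3 (1.23) rose too (edgeR adjusted p-values 0.00139 to 0.0280). Gfap, the filament protein of reactive glia, rose from 19.1 to 20.7 CPM in WT to 47.4 to 78.3 CPM in KO (1.67, SE 0.15, edgeR adjusted p-value 0.000382). Fgf2, a survival factor of photoreceptors, was at 37.4 to 42.2 CPM in WT and 124 to 213 CPM in KO (2.07, SE 0.16, edgeR adjusted p-value 0.000142). Bcl3 (2.50), Cebpd (2.13) and Serpina3n (1.45) were the other called genes (edgeR adjusted p-values 0.0384, 0.0271 and 0.0419). Their levels differed within the KO group. Bcl3 was at 0.998 and 0.618 CPM in KO 2 and KO 3 but at 2.51 to 3.79 CPM among the other KO libraries, and Cebpd was at 6.86 and 5.85 CPM against 18.6 to 22.7 CPM. Serpina3n was at 8.86 and 5.14 CPM, the latter below WT 2, against 14.0 to 17.5 CPM. The metallothioneins Mt1 (-0.33) and Mt2 (-0.45) did not pass. In KO 2 and KO 3 against WT, 4 of the 16 were called higher, namely Fgf2, Gfap, Stat3 and Osmr, where 0.624% of all genes were. In KO 4 to KO 6 against WT, 13 were called higher, where 22.3% of all genes were. The number called higher over all libraries was 4, 4 and 5 without WT 1, WT 2 and WT 3, and 6, 6 and 7 without KO 4, KO 5 and KO 6, in fits that called 0.417% to 1.73% of all genes higher.

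**Figure D4:**
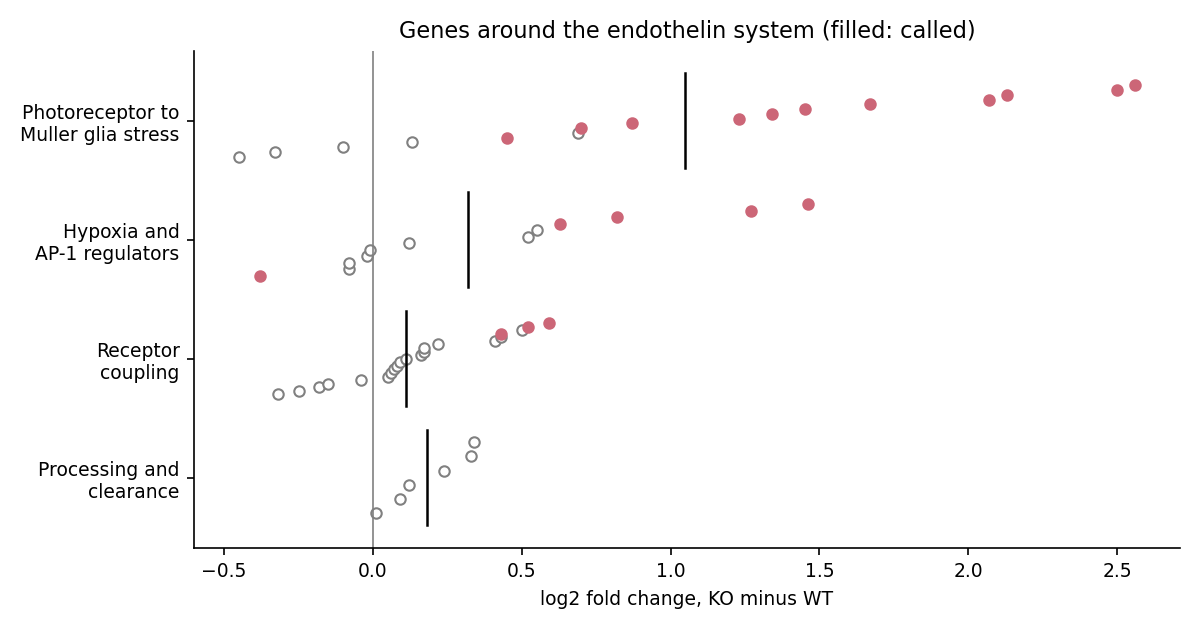
Log2 fold change (x axis, KO minus WT, all 8 libraries) of each tested gene in 4 lists around the endothelin system. Each circle is a gene, filled where edgeR called it, and the vertical line is the median of the list, which is 1.05 for the stress list and 0.11 to 0.32 for the others.

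The genes whose profile over the 8 libraries was most like that of a called member were found by the root mean square (RMS) difference of centred log2 CPM, among 13620 genes outside the X and Y chromosomes. For Edn2 these were Fgf2os (RMS difference 0.485), Cebpd (0.498), Lad1 (0.543), Tnnt2 (0.655) and Gm43488 (0.677), while the median over all genes was 1.53. Lad1, an anchoring filament protein of epithelia, was at 1.36 to 2.14 CPM in WT, 6.29 CPM in KO 2, 5.47 CPM in KO 3 and 14.9 to 19.5 CPM among the other KO libraries. Tnnt2, the cardiac troponin T, was at 3.24 to 3.91, 5.34, 7.99 and 14.5 to 17.8 CPM in the same order. The genes were chosen by their nearness to Edn2, which fixes that they are high in the same libraries. Fgf2os is annotated on the strand opposite to Fgf2, and 0 of its 1441 exon bases overlap exons of Fgf2 in the GRCm38 annotation. Fgf2os was at 2.95 CPM in KO 2 and 3.09 CPM in KO 3, near its 1.46 to 2.69 CPM in WT, and at 11.2 to 14.2 CPM among the other KO libraries.

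**Figure D5:**
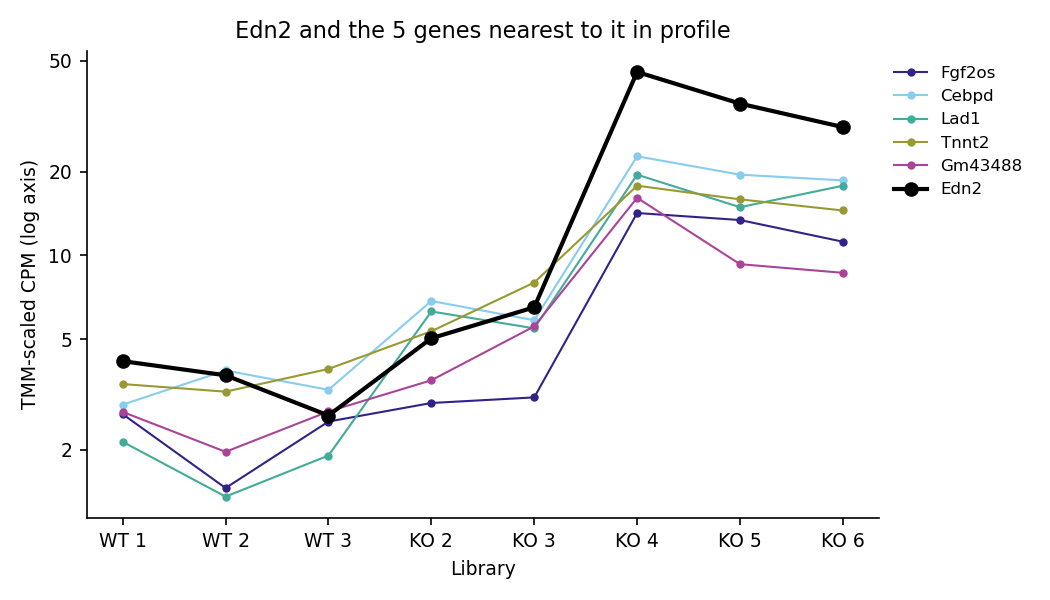
Level in TMM-scaled CPM (log axis) in each library of Edn2 (thick black line) and of the 5 genes nearest to it in centred log2 CPM. All 6 genes are lowest in a WT library and at their 3 highest levels in KO 4, KO 5 and KO 6.

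For Ece1 the nearest genes were Esrrb (RMS difference 0.062), Gnl1 (0.071), Adamtsl1 (0.075), Rbm19 (0.078) and Arf3 (0.079), with a median of 0.360 over all genes. Esrrb, a nuclear receptor of rod photoreceptors, was at 368 to 443 CPM in WT and 481 to 671 CPM in KO, with KO 3 the lowest of the KO libraries and WT 3 the highest of WT, as for Ece1. The log2 fold changes of the 5 genes were 0.45 to 0.54, which the choice by nearness to Ece1 fixes. Ece1 itself had the 543rd largest rise of the 956 genes called higher.

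Markers of vascular and glial cells, which make or receive endothelins, were read beside these results, and their counts stand against the 4.74% of all tested genes called higher and the 2.84% called lower. The summed level of 10 endothelial markers was 249 to 253 CPM in WT and 298 to 420 CPM in KO, and 1 of 10 was called higher, namely Kdr (log2 fold change 0.92, edgeR adjusted p-value 0.00738). Kdr alone had a mean of 116 CPM in WT and 219 CPM in KO and so made up most of the difference in the sum. The log2 fold change was positive for 9 of the 10, with a median of 0.31, and Emcn was the exception. That of 9 pericyte and smooth muscle markers was 104 to 115 and 124 to 174 CPM, with 1 of 9, Pdgfrb, called higher (0.93, edgeR adjusted p-value 0.00402). Rgs5 made up most of this sum (67.0 to 76.7 CPM in WT, 69.8 to 91.8 CPM in KO, edgeR adjusted p-value 0.380). The highest sum was that of KO 3, and Acta2 reached 33.6 CPM in 1 KO library against 2.09 to 4.77 CPM in WT. The log2 fold change was positive for 8 of the 9, with a median of 0.45. The summed level of 10 Muller glia markers was 4603 to 4804 and 5003 to 7054 CPM, with 4 of 10 called higher, namely Kcnj10, Sox9, Vim and Crym. Glul held the largest part of this sum (2375 to 2552 CPM in WT, 2335 to 3655 CPM in KO, edgeR adjusted p-value 0.623), and the highest sum was that of KO 2. The log2 fold change was positive for 10 of the 10, with a median of 0.39. The summed level of 5 astrocyte markers was 263 to 268 and 325 to 448 CPM, with 1 of 5 called higher. The astrocyte sum was nearly all Slc1a2 (245 to 247 CPM in WT, 305 to 417 CPM in KO), which was also the called gene. The sum therefore reads Slc1a2 and not astrocytes as such. Pax2 (0.36, edgeR adjusted p-value 0.630), S100b (-0.14, edgeR adjusted p-value 0.576) and Igf2bp1 (-0.02, edgeR adjusted p-value 0.990) were not called. The log2 fold change was positive for 3 of the 5, with a median of 0.36, and Aldh1l1 was at 9.70 to 11.3 CPM in WT and 9.89 to 22.9 CPM in KO (0.78, edgeR adjusted p-value 0.0707). No marker of these lists was at 0 in all libraries, and 8 cone markers, which the labelled tissue should hold, summed to 953 to 1190 CPM in WT and 688 to 916 CPM in KO, with 1 called higher and 3 lower. Limma voom, which called 20.3% of all genes higher, called 6 of 10 endothelial, 4 of 9 pericyte and smooth muscle, 7 of 10 Muller glia and 2 of 5 astrocyte markers higher, and called Emcn and Igf2bp1 lower. DESeq2, which called 9.72% higher, called 1, 3, 5 and 2 of the same lists. Of the 8 cone markers, DESeq2 called 1 higher and 5 lower and limma voom 2 higher and 5 lower, in fits that called 3127 and 8248 genes. The part of cell numbers in the rise of Edn2 and Ece1 was not tested. A list of 5 melanocyte markers, pigment genes that the pigment epithelium also expresses, summed to 38.7 to 51.7 CPM in WT and 16.2 to 58.8 CPM in KO, and edgeR and DESeq2 each called 0 of 5, with unadjusted edgeR p-values of 0.188 to 0.688, while limma voom called 1 of 5, Tyrp1, lower. The sum was 20.4, 17.2 and 16.2 CPM in KO 3, KO 5 and KO 6, and only KO 5 and KO 6 of these were also low in Edn3.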

How the data were processed

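RNA sequencing reads of whole mouse retina were supplied by the authors as one deposited table of unnormalized counts per gene, whole numbers for 8 libraries and 26824 genes. The submitters' processing notes name Trim Galore, Salmon 1.10.2, DESeq2 and GRCm38 without a role or order. The annotation release, the strand setting and any rounding of estimated counts are not given in the sources used here. No deposited gene has fewer than 16 counts in total.

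TMM scaling and filterByExpr (20167 genes left) were applied, and groups were compared by edgeR 4.0.16 (glmQLFit, glmQLFTest) in R 4.3.3, KO against WT without covariates. Benjamini-Hochberg adjustment ran over all tested genes, with calls under 0.05. Standard errors came from the fold change and F. Each library is a separate mouse, per the labels' protocols.

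The members and lists were chosen with earlier results of these data known. Named genes are the members, Kcnv2, every called gene of the 4 pathway lists and the 5 genes nearest in profile to each called member (mean log2 CPM of at least 1, prior count 2). Others are named from the lists.

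The fit was tested on simulated counts with 200 genes changed 2-fold, of which 195 were tested and 108 called (55.4%), with 7 others called. The simulated KO libraries shared the same mean per gene, without the split of the real KO group, so these rates need not hold for the real data. Pairs of libraries of one group differed beyond sampling noise (chi-square of 5.85 or more per degree of freedom). Alternatives were DESeq2 1.42.0, limma 3.58.1 (voom), other scalings and filters, a GC offset, and fits without libraries. Replicate numbers 2 and 3 occur in both groups but are not stated to pair mice.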

Additional observations from a re-analysis of the deposited data

Results flagged for a closer look

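In the 5 KO libraries, 39 values were searched for a library far from the others (a gap above 0.71 of the whole range), and 4 were found where chance gives about 1.9. Vegfa was lowest in KO 2 (log2 CPM 6.42), with a gap of 0.804 of the range. Among the genes nearest to Ece1 in profile, both of these were lowest in KO 3: Gnl1 with a gap of 0.777 (log2 CPM 6.56) and Arf3 with a gap of 0.800 (log2 CPM 7.82). The share of lens transcripts was high in KO 3, at 4.67% of counts with a gap of 0.996. No level of the 6 endothelin genes was found in this search.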

How the results depend on the processing

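Edn2, Ece1 and Ednrb kept a positive and Edn1 a negative log2 fold change in all 30 alternatives. Edn2 was called in 15 of them, Ece1 in 16, Edn3 in 2, Edn1 in 1, and Ednrb and Ednra in none. Causes of the changes below were not tested. The number of genes called was 3127 in DESeq2 and 8248 in limma voom against 1529. Without 1 library it was 132 to 3992. Without 2 KO libraries it was 8416 (KO 2 and KO 3), 399 (KO 2 and KO 4), 496 (KO 2 and KO 5), 645 (KO 2 and KO 6), 2540 (KO 3 and KO 4), 2225 (KO 3 and KO 5), 2593 (KO 3 and KO 6), 118 (KO 4 and KO 5), 191 (KO 4 and KO 6) and 203 (KO 5 and KO 6), and it was 180 in KO 2 and KO 3 against WT.

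Edn2 lost the call at 2.79 with library size alone (edgeR adjusted p-value 0.0504) and with robust estimation (0.110), at 1.95, 2.15 and 2.44 without KO 4 and KO 5, KO 4 and KO 6, and KO 5 and KO 6, and at 0.72 in KO 2 and KO 3. Without 1 library it was 2.43 to 3.05. Ece1 lost it at 0.51, 0.50 and 0.55 without KO 2 and KO 4, KO 5 or KO 6, at 0.51, 0.56 and 0.54 without the pairs among KO 4 to KO 6, and at 0.49 in KO 2 and KO 3. Without 1 library it was 0.51 to 0.69. Edn1 (-0.67) and Edn3 (-1.46) gained the call in limma voom, and Edn3 (-1.56) without KO 2 and KO 3. Edn3 turned to 0.17 in KO 2 and KO 3. Ednra turned to -0.11 without KO 3, and to -0.19, -0.07 and -0.25 without KO 3 and KO 4, KO 5 or KO 6. Without 1 library it was -0.11 to 0.31. The share of Ednrb in WT was 74.9% with the longest transcript as length.

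With the replicate number as a block, WT 2, WT 3, KO 2 and KO 3 gave 52 calls, against 14 unblocked and 527 with the pairing crossed. Same-numbered libraries deviated with a correlation of -0.19, so that the numbers were not taken to pair mice. The log2 fold changes under the block, unblocked and crossed were 0.86, 0.86 and 0.86 for Edn2, 0.44, 0.45 and 0.45 for Ece1, and 0.11, 0.13 and 0.11 for Edn3. Low counts limit Edn1, Edn3 and Ednra, at 13 to 67 per library.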
